A study of Homo sapiens with 6 samples.

Results

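The U2 windows are the start-site windows whose class label, without its trailing number, is U2: 74 of the 53603 windows in the deposited count table. Of these, 21 lay on chromosomes 17 and 11, which hold the expressed U2 genes, and 53 on other chromosomes. Every window spans 400 bp, of which 150 bp lie before a start and 250 bp after it, so 72 of the 74 hold a whole annotated U2 gene and its product rather than a promoter alone. The exceptions are an offset array window and a window on chromosome 15 with no named gene, which had 15 counts in all. Small RNA came from HEK293T cells, an established line of human embryonic kidney origin, transfected with Lipofectamine RNAiMax for 48 h. The siControl arm received a control siRNA and the siLa arm siLa, directed at La, which is the product of SSB and binds RNA, each at 150 nM, with 3 biological replicates per arm and 6 libraries in all. Knockdown was transient and in bulk culture, so fewer cells that make an RNA and less of it per cell cannot be told apart.

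U2 is the small nuclear RNA of the U2 snRNP, which pairs with the branch point of an intron through a short conserved sequence near its 5′ end and so helps to set up the splicing reaction. It is made by RNA polymerase II from a tandem array on chromosome 17, with RNU2-1 as the named copy, and from the separate gene RNU2-2 on chromosome 11. A ring of Sm proteins assembles on a uridine-rich site in the middle of the RNA and protects it. La binds the oligo(U) tail that RNA polymerase III leaves on its transcripts. The genome also carries many dispersed U2-like copies, most of them annotated as pseudogenes.

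The sequences of the genes themselves, from GENCODE release 29 transcripts (GRCh38), show how closely the copies resemble each other. RNU2-1 (17:43233787-43233977, minus strand) and RNU2-2 (11:62841619-62841809, minus strand, in a window that ran from 62841560 to 62841959) are both 191 nucleotides long. They are printed whole because most U2 counts lay on RNU2-2 and on array genes with the sequence of RNU2-1, and capitals mark positions 91 to 114, counted from 1 at the 5′ end of RNU2-1.
RNU2-1: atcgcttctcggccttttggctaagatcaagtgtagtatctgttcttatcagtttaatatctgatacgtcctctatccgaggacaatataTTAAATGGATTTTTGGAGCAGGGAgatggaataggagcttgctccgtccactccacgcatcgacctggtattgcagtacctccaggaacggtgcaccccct
RNU2-2: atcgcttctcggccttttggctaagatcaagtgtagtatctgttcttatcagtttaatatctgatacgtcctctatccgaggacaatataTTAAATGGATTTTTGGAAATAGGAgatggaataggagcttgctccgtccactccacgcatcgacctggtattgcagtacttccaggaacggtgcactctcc
The pair differ at 8 positions: G108A, C109A, A110T, G111A, C170T, C187T, C189T and T191C, with the base of RNU2-1 first. The branch-point recognition letters GTAGTA stand at positions 33 to 38 of both, and the Sm-site letters ATTTTTGG at positions 99 to 106. On the sense strand, GTAGTA was present in all 13 array genes, in RNU2-2 and in 23 of 37 dispersed copies with a GENCODE sequence (62.2%), against 68 of all 1900 GENCODE snRNA transcripts (3.58%). ATTTTTGG was present in 13 of 13 array genes, in RNU2-2 and in 17 of those 37 copies (45.9%), against 50 of the 1900 (2.63%). The complement strand held GTAGTA in 11 and ATTTTTGG in 3 of the 1900 transcripts, and in none of these U2 genes.

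The array covered 14 windows and 13 genes, from the window of RNU2-1 (17:43233728-43234127) to that of LOC124904144 (17:43299982-43300381), all on the minus strand and within the annotated bounds of CCDC200. In 11 of the 13 genes the sequence was identical to RNU2-1. LOC124904146 had 1 extra base, and LOC124904145 had the single change C170T, which RNU2-2 also carries. LOC124904145 was covered by 2 windows that shared 213 bp. The first of them left out the 37 bases at the gene's 5′ end, yet it held between 1 and 5 reads more than the other in each library. Besides the array and RNU2-2 there were 59 other copies, 29 of them inside a protein-coding gene. The 37 with a sequence were 79 to 212 nucleotides long and had 9 to 116 differences from RNU2-1.

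The 6 libraries held 3066299 to 4105806 counts in windows of all classes, and U2 windows took 5.36%, 3.12% and 3.23% of these in siControl 1, 2 and 3 and 2.90%, 2.77% and 3.06% in siLa 1, 2 and 3. A count of 0 allowed up to 3 reads, which is 0.731 to 0.978 CPM depending on the library and covers counting error only. CPM is the count scaled to a common library total. SSB mRNA is not measured by small RNA windows. VTRNA1-2, a vault RNA made by RNA polymerase III and known to bind La, was taken as the reference with its fall in these data already known, and it had the lowest adjusted p of all windows tested. Its CPM was 9273, 8685 and 6619 in siControl and 2205, 1302 and 1828 in siLa. Those arms did not overlap, and the fold change was -2.20 on the log2 scale (SE 0.26, adjusted p = 0.00565, edgeR quasi-likelihood test with Benjamini-Hochberg adjustment over 1064 tested windows). The vault RNAs VTRNA1-1 and VTRNA1-3 were at -1.86 (adjusted p = 0.0103 by edgeR) and -1.11 (adjusted p = 0.135 by edgeR, not past the threshold). Library siControl 1, the deepest, stood apart in U2 content.

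No U2 window passed the test for a difference between the arms. Of 74 windows, 34 had enough reads to be tested, 18 of 21 on chromosomes 17 and 11 and 16 of 53 elsewhere, and 0 of the 34 had an adjusted p under 0.05 by edgeR's quasi-likelihood test, against 5.45% of all tested windows. That background was 4.79% lower in siLa and 0.658% higher. The lowest adjusted p among U2 windows was 0.198, for RNU2-36P. At an unadjusted p under 0.05 there were 0 lower and 2 higher (RNU2-36P and RNU2-37P), where the background was 14.2% lower and 9.68% higher. DESeq2 also called 0 of 34, against 99 of all 1064 windows tested. The median log2 fold change was -0.09 over the 34 U2 windows and -0.05 over all windows tested. It was -0.51 over the tested windows on chromosomes 17 and 11 and 0.43 over those elsewhere.

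The array windows, which count the major U2 RNA, were read most in siControl 1 and least in siLa 2. RNU2-1 had 15036, 6500 and 6831 counts in siControl 1, 2 and 3 and 5365, 4804 and 6041 in siLa 1, 2 and 3. In CPM scaled by TMM factors this was 3925, 1922 and 1771 against 1924, 1415 and 1903. The arms overlapped, since siLa 1 and 3 lay beside siControl 2 and 3 and only siControl 1 was far above them. Mean CPM of RNU2-1 was 2539 ± 1202 (SD, n = 3) in siControl and 1747 ± 288 (SD, n = 3) in siLa, a log2 fold change of -0.54 (SE 0.32, 95% interval -1.24 to 0.16, adjusted p = 0.283 by edgeR). Over the 12 windows of genes that match RNU2-1 or have only the extra base, the log2 fold change ran from -0.55 to -0.50, with SE 0.31 to 0.32 and adjusted p from 0.278 to 0.319. These 12 are not independent measurements. Without siControl 1 the same windows were at -0.09 to -0.02, and without siControl 1 and siLa 2 together at 0.0071 to 0.093. Upper quartile scaling put them at -0.21 to -0.16 and no filter on low counts at -0.81 to -0.76.

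Within a library, the 12 array windows had almost the same count. Their mean was 15104, 6395 and 6887 counts per window in siControl 1, 2 and 3, with SD 175, 94.3 and 73.0 over the 12 windows. In siLa 1, 2 and 3 it was 5515, 4898 and 5960, with SD 81.0, 65.3 and 132. The SD was 1.06% to 2.21% of the mean, and the variance 0.773 to 2.91 times the mean, where counting error alone gives a variance equal to the mean. Genes with the same sequence cannot be told apart by a short read, so the count of a single array gene is uncertain and the level of the array is best read as a whole. How reads with several positions were treated is not given in the sources used here, nor is the use of strand.

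LOC124904145, the array gene with C170T, was read less than its neighbours in every library. Its 2 windows held 7845 and 7842 counts in siControl 1, 3807 and 3805 in siControl 2, and 3941 and 3938 in siControl 3. In siLa the counts were 2774 and 2769, 3358 and 3357, and 3535 and 3532. The second window's count was 0.519, 0.595 and 0.572 of the array mean in siControl and 0.502, 0.685 and 0.593 in siLa. The arms therefore overlapped on this ratio as well. Reads from positions 1 to 169 fit RNU2-1 equally well, so the lower count may depend on how such reads were placed, which is not known. The log2 fold change of LOC124904145 was -0.44 in both windows (SE 0.29, adjusted p = 0.322 by edgeR). Without siControl 1 it was -0.06 in both, under upper quartile scaling -0.10 and with no filter -0.70.

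RNU2-2, the chromosome 11 gene, had 15598, 8188 and 8814 counts in siControl and 7033, 9561 and 7709 in siLa. As CPM this was 4071, 2421 and 2285 against 2522, 2817 and 2428, with siControl 1 highest and the arms overlapping. The log2 fold change was -0.18 (SE 0.26, 95% interval -0.75 to 0.39, adjusted p = 0.649 by edgeR), and its sign turned without siControl 1 (0.14) and under upper quartile scaling (0.15). Per window of equal length, RNU2-2 held 1.03, 1.28 and 1.28 times the mean array window in siControl and 1.28, 1.95 and 1.29 times in siLa. RNU2-2 is identical to RNU2-1 from position 1 to 107, so reads from that part fit both. The 12 array windows together held 17314 to 47311 CPM per library, so the ratio does not set RNU2-2 above the array. The ratio was lowest in siControl 1 and highest in siLa 2, the same libraries in which the array itself was highest and lowest.

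**Figure D1:**
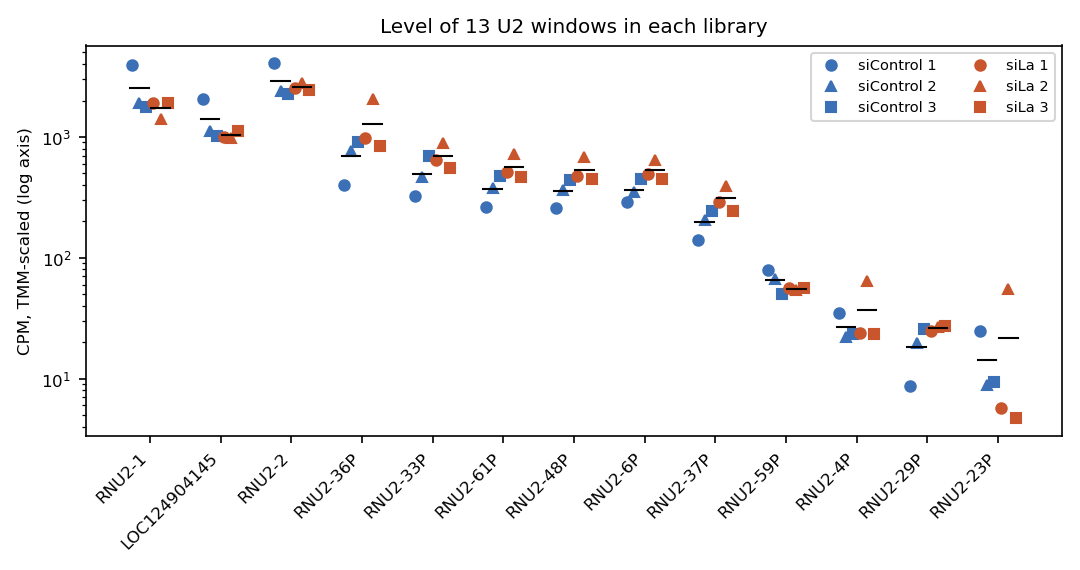
CPM scaled by TMM factors (log axis) of 13 U2 windows in each library; blue symbols are siControl, orange symbols siLa, the symbol shape gives the replicate number and the short bars are arm means. The array gene RNU2-1 was highest in siControl 1 (3925) and lowest in siLa 2 (1415), while RNU2-36P was lowest in siControl 1 (397) and highest in siLa 2 (2052).

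Among the 59 other copies, 6 were read far more than the rest, and all 6 lay outside chromosomes 17 and 11. They were RNU2-36P (9:86422938-86423128), RNU2-33P (14:96384624-96384815, within GSKIP), RNU2-61P (6:89063500-89063690), RNU2-6P (13:46374401-46374590, within RUBCNL), RNU2-48P (5:157976766-157976956) and RNU2-37P (3:128075073-128075249, within RUVBL1). Their totals over the 6 libraries were 19991, 12054, 9492, 9021, 8997 and 5109 counts. The next copy, RNU2-59P, had 1244. Resemblance to RNU2-1 over the whole gene did not order these totals: RNU2-36P had 23 differences and RNU2-59P only 9.

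The well-read copies were those that matched an expressed U2 gene exactly over positions 91 to 114, around the Sm-site letters. The stretch from position 80 to 126 is printed for these 6 copies and RNU2-2 beside RNU2-1, with capitals where a letter differs from RNU2-1.
RNU2-1: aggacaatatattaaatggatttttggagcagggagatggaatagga
RNU2-2: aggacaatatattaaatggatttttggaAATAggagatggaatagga
RNU2-36P: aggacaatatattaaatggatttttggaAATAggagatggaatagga
RNU2-33P: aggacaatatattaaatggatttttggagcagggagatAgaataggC
RNU2-61P: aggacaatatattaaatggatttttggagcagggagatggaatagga
RNU2-6P: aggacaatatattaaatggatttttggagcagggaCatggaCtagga
RNU2-48P: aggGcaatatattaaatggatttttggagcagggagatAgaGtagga
RNU2-37P: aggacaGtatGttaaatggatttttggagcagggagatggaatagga
RNU2-36P carried the 4 letters of RNU2-2 (G108A, C109A, A110T, G111A) and was identical to RNU2-2 from position 79 to 130, over 52 nucleotides. RNU2-61P was identical to RNU2-1 from 79 to 128, RNU2-33P from 80 to 117 and RNU2-37P from 91 to 126. RNU2-6P and RNU2-48P had their longest exact match elsewhere, at positions 1 to 54 and 15 to 60, but also matched RNU2-1 throughout 91 to 114.

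Copies with a single changed letter inside that stretch had far fewer reads. There were 8 of them, printed here in order of their counts with the same use of capitals, and their totals ran from 138 to 1244 counts, with a median of 295.
RNU2-59P: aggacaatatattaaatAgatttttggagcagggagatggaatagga
RNU2-29P: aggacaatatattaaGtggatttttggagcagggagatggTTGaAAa
RNU2-3P: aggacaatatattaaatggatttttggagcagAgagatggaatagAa
RNU2-64P: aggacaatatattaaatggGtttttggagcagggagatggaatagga
RNU2-57P: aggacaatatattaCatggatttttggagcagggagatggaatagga
RNU2-26P: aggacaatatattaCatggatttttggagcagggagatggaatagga
RNU2-68P: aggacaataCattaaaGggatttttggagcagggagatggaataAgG
RNU2-32P: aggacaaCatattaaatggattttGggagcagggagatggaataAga
Within 91 to 114 the single changes were G97A in RNU2-59P, A95G in RNU2-29P, G112A in RNU2-3P and A99G in RNU2-64P. RNU2-57P and RNU2-26P shared A94C, RNU2-68P had T96G and RNU2-32P had T104G. RNU2-14P, which reads A110C where RNU2-36P and RNU2-2 read A110T and otherwise shares their letters in the stretch, had 67 counts in all. Of the 37 copies with a sequence, the 6 exact matches held 5109 to 19991 counts and the other 31 held at most 1244. The stretch was chosen after the counts had been seen, so the division is a description without a test. Among windows of 24 nucleotides slid along RNU2-1, those starting at 91 divided 6 copies from the rest in this way, and those starting at 89 and 90 divided 5. With 20 nucleotides it was starts 93 and 94 (6 copies), and with 28 nucleotides starts 85 to 87 (5 copies).

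**Figure D2:**
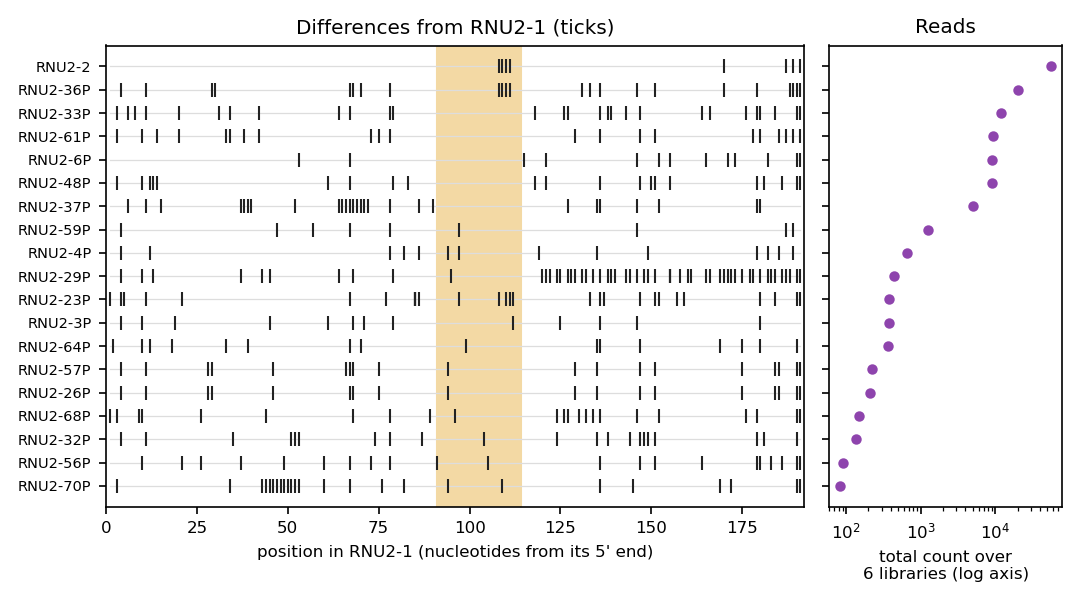
Left, positions at which RNU2-2 and 18 dispersed copies differ from RNU2-1 (ticks, in nucleotides from the 5′ end of RNU2-1), with positions 91 to 114 shaded; right, the total count of each over 6 libraries (log axis), in the same order. The shaded stretch is free of ticks, or holds only the RNU2-2 letters at 108 to 111, in the rows from RNU2-2 down to RNU2-37P, all at 5109 counts or more.

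All 6 well-read copies had their highest CPM in siLa 2 and their lowest in siControl 1. RNU2-36P had 1522, 2581 and 3531 counts in siControl 1, 2 and 3 and 2732, 6967 and 2658 in siLa 1, 2 and 3, which is 397, 763 and 915 CPM against 980, 2052 and 837. The arms overlapped, because siLa 3 lay below siControl 3. Its mean was 692 ± 266 CPM (SD, n = 3) in siControl and 1290 ± 664 (SD, n = 3) in siLa, a log2 fold change of 0.90 (SE 0.40, 95% interval 0.02 to 1.77, adjusted p = 0.198 by edgeR).

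RNU2-37P had 139, 207 and 244 CPM in siControl and 291, 395 and 245 in siLa, and RNU2-48P had 256, 363 and 442 against 479, 681 and 452. They were the only U2 windows of the 34 whose arms did not overlap, both higher in siLa, where 14.1% of all tested windows stood apart in that direction and 17.9% in the other. The margin was narrow, since siLa 3 and siControl 3 were at 245 and 244 CPM in RNU2-37P. The log2 fold change of RNU2-37P was 0.66 (SE 0.29, adjusted p = 0.199 by edgeR) and that of RNU2-48P 0.60 (SE 0.28, adjusted p = 0.221 by edgeR).

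For the other 3 of the 6 the arms overlapped. RNU2-61P had 263, 378 and 475 CPM in siControl and 508, 728 and 469 in siLa. RNU2-6P had 287, 352 and 447 against 495, 650 and 447. RNU2-33P had 324, 466 and 694 against 643, 883 and 557. Their log2 fold changes were 0.61 for RNU2-61P, 0.55 for RNU2-6P and 0.49 for RNU2-33P, with adjusted p of 0.223, 0.224 and 0.314 by edgeR. Across the 6 the range was 0.49 to 0.90 with a median of 0.61. Without siLa 2 it was 0.26 to 0.43, without siControl 1 it was 0.27 to 0.63, and without both libraries 0.024 to 0.226. Upper quartile scaling gave 0.80 to 1.20 and no filter 0.24 to 0.63. These 6 windows share sequence with each other and with the array, so their changes are not independent of each other, and reads of an expressed U2 RNA that fit a copy equally well cannot be told apart from reads of the copy.

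**Figure D3:**
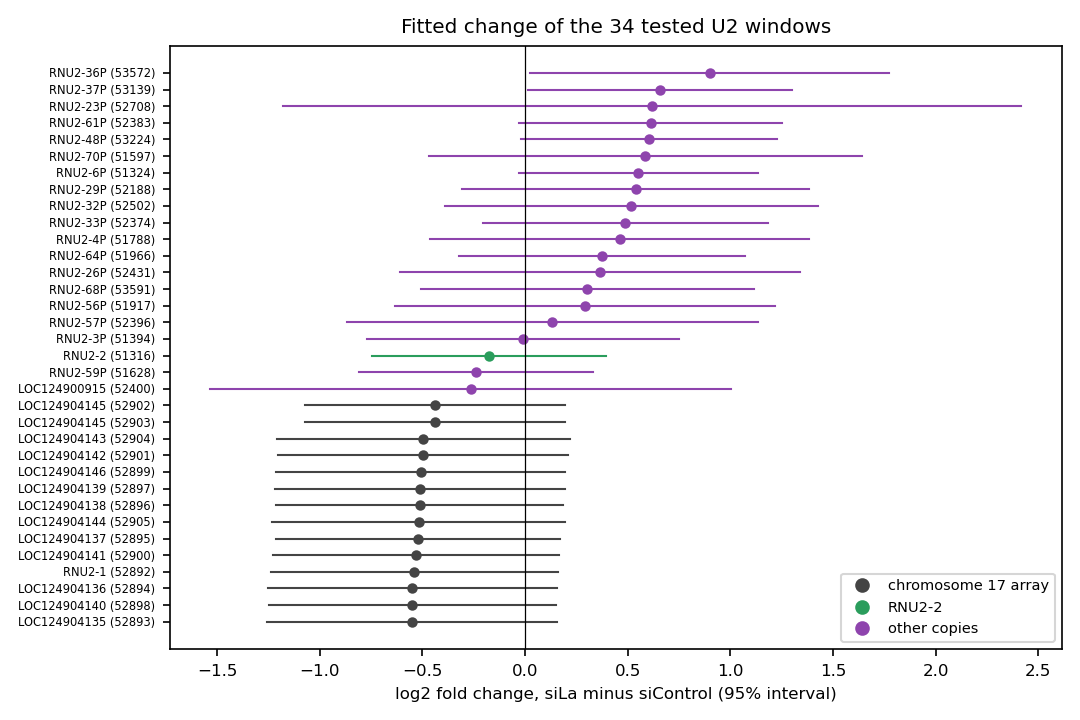
Log2 fold change, siLa minus siControl, of the 34 tested U2 windows with its 95% interval from edgeR; grey marks the array, green RNU2-2 and purple the other copies, and the number after each symbol is the window's own. All 14 array windows sit between -0.55 and -0.44 with intervals that cross 0, and only the intervals of RNU2-36P and RNU2-37P, not adjusted for the number of windows, lie above 0.

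Of the 6 well-read copies, RNU2-61P, RNU2-6P and RNU2-37P kept nearly fixed proportions to RNU2-48P, and RNU2-33P and RNU2-36P varied more. RNU2-61P held 1.03 to 1.07 times the count of RNU2-48P in the 6 libraries, RNU2-6P 0.954 to 1.12 times, RNU2-37P 0.543 to 0.609 times, RNU2-33P 1.23 to 1.57 times and RNU2-36P 1.55 times in siControl 1 to 3.01 times in siLa 2. Against the mean array window, RNU2-48P stood at 0.0649 in siControl 1, 0.192 and 0.248 in siControl 2 and 3, 0.242 and 0.241 in siLa 1 and 3, and 0.472 in siLa 2. So siControl 1 was low and siLa 2 high, and the remaining 4 libraries of both arms lay together. RNU2-36P varied over a wider range, as its count was 0.101, 0.404 and 0.513 of the mean array window in siControl and 0.495, 1.42 and 0.446 in siLa. In siLa 2 it was thus above the mean array window, at 6967 counts, but the 12 array windows together held 58771. Even against RNU2-2, whose letters at 108 to 111 it shares, RNU2-36P ranged from 0.0976 in siControl 1 to 0.729 in siLa 2.

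**Figure D4:**
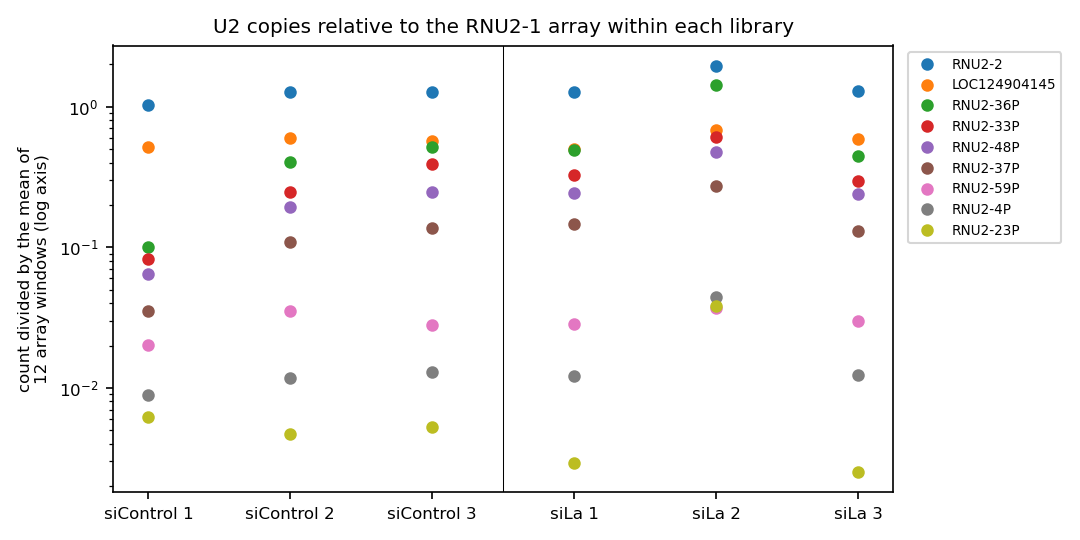
Count of 9 U2 genes or copies divided by the mean of the 12 array windows in the same library (log axis), siControl left of the line and siLa right of it. The ratio of RNU2-36P was 0.101 in siControl 1 and 1.42 in siLa 2, while the other 4 libraries lay between 0.404 and 0.513.

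The share of U2 counts that lay on chromosomes other than 17 and 11 followed the same order of libraries. It is built largely from the same counts, so this order is not a separate result. On those chromosomes the 6 well-read copies held 6386 of 7097 counts in siControl 1 and 18292 of 19081 in siLa 2. The share was 3.23% (95% Wilson interval 3.15% to 3.30%), 8.97% (8.80% to 9.15%) and 11.7% (11.5% to 11.9%) in siControl 1, 2 and 3. In siLa 1, 2 and 3 it was 11.2% (11.02% to 11.4%), 20.2% (19.9% to 20.4%) and 10.5% (10.3% to 10.7%). The intervals cover counting error only, and the replicates differed by far more than that. Mean shares were 7.96% ± 4.31 (SD, n = 3) in siControl and 14.0% ± 5.40 (SD, n = 3) in siLa, a difference of 5.998 percentage points that was 2.89 without siLa 2 and 3.63 without siControl 1. The arms overlapped, as siLa 3 and siLa 1 lay below siControl 3.

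Summed over the 21 windows on chromosomes 17 and 11, the level was 55543, 27400 and 25788 CPM in siControl and 28275, 22239 and 27222 in siLa. Both siLa 1 and siLa 3 lay within the siControl range, and siLa 2 was below it. The means were 36243 ± 16733 CPM (SD, n = 3) and 25912 ± 3224 (SD, n = 3), and their difference of -10331 CPM became -682 without siControl 1. On the other chromosomes the sum was 1852, 2702 and 3407 CPM in siControl and 3577, 5621 and 3180 in siLa.

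Below the 6 well-read copies, 13 more were tested, at log2 fold changes of -0.26 to 0.62 with adjusted p from 0.364 to 0.983 by edgeR. RNU2-59P (10:101364845-101365035, within BTRC) had 79.9, 67.1 and 49.8 CPM in siControl and 56.6, 53.6 and 56.4 in siLa. It differed from the 6 in that siControl 1 was its highest library, and its log2 fold change was -0.24 (SE 0.26). Without siControl 1 that was -0.07, without siControl 3 it was -0.40, and with no filter -0.50, while upper quartile scaling turned its sign (0.083). RNU2-4P (17:43387226-43387417) and RNU2-23P (11:65147584-65147778) lay on the chromosomes of the expressed genes, outside the array. They are shown from position 20 to 68, with capitals where a letter differs from RNU2-1. There RNU2-4P matches the expressed genes throughout, and RNU2-23P does so except at C21G and C67T. In 91 to 114 neither copy matches them.
RNU2-4P: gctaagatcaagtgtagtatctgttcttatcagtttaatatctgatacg
RNU2-23P: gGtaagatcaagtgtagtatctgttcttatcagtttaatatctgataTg
RNU2-4P matched RNU2-1 and RNU2-2 exactly over 65 nucleotides, from 13 to 77, and RNU2-23P over 45, from 22 to 66, both runs holding GTAGTA. RNU2-4P had 135, 75 and 90 counts in siControl and 67, 216 and 74 in siLa, and RNU2-23P had 94, 30 and 36 against 16, 186 and 15. In both, siLa 2 was highest and siControl 1 next, and the other 4 libraries were low, an order not seen in the array or in the 6 well-read copies. LOC124900915 on chromosome 4 also had siLa 2 highest and siControl 1 next, at 25, 15 and 17 counts in siControl and 5, 30 and 6 in siLa. The log2 fold change of RNU2-4P was 0.46 (SE 0.42) and became -0.20 without siLa 2. That of RNU2-23P was 0.62 (SE 0.81) and became -1.46 without siLa 2.

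The remaining tested copies had at most 100 counts in any library. RNU2-29P (7:53776136-53776324) had 33, 67 and 100 counts in siControl and 69, 91 and 87 in siLa, a log2 fold change of 0.54 (SE 0.38). RNU2-3P (15:95745804-95745994) had 61, 59 and 84 against 44, 89 and 40, at -0.01 (SE 0.34). RNU2-64P (3:73110992-73111182) had 45, 68 and 60 against 58, 80 and 54, at 0.37 (SE 0.31). In each of the 3 the arms overlapped. RNU2-26P and RNU2-57P lie in the paired genes PCDH11X and PCDH11Y, share A94C and had similar counts, with RNU2-57P at 0.788 to 1.23 times RNU2-26P per library. Their log2 fold changes were 0.36 (SE 0.44) and 0.13 (SE 0.45). RNU2-26P had 18 differences from RNU2-1 and RNU2-57P 19, all shared except A66G in RNU2-57P. Reads that fit both cannot be told apart, so these counts do not show that the chromosome Y copy was itself transcribed. RNU2-32P on chromosome 17, RNU2-56P, RNU2-68P, RNU2-70P and LOC124900915 had totals of 138, 90, 150, 83 and 98 counts, with log2 fold changes of 0.52, 0.29, 0.30, 0.59 and -0.26.

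The 40 untested windows held 624 of the 714251 U2 counts, at most 24 in a library and 67 over all 6. The highest were RNU2-14P with 7, 7 and 9 counts in siControl and 7, 24 and 13 in siLa, RNU2-46P with 46 in all, RNU2-38P with 44, LOC124904641 with 42 and RNU2-30P with 35. On chromosomes 17 and 11 the untested windows were LOC124904147 with 30 counts in all, RNU2-58P with 14 and LOC124902844 with 1. In 4 windows no read was counted in any library. RNU2-14P had its highest count in siLa 2, at a depth that did not reach the filter for a test.

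In the authors' deposited table of their own comparison, 0 of the 74 U2 windows had an adjusted p under 0.05. The share over all its windows is not given here, so the U2 counts from it stand without a background. There the 14 array windows had log2 fold changes of -0.80 to -0.69 with unadjusted p of 0.00619 to 0.0199, and they are not independent measurements. Outside the array, 1 of 60 windows had an unadjusted p under 0.05, RNU2-41P, with 17 counts in all. It is named here after its value was seen. The 6 well-read copies were at 0.18 to 0.57 in the same deposited table, with unadjusted p of 0.0590 to 0.545.

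The other snRNA classes also had no window past the test. Of 135 windows of RNA polymerase II classes other than U2 (U1, U4, U4atac, U5, U7, U11 and U12), 53 were tested and 0 called by edgeR, against the 5.45% of all windows given above. At an unadjusted p under 0.05 there were 2 lower and 4 higher, where the background was 14.2% lower and 9.68% higher. DESeq2 called 0 of the 53, against 99 of all 1064 windows. Their median log2 fold change was -0.02. For the RNA polymerase III classes U6 and U6atac, 9 of 102 windows were tested and 0 called, with 0 at an unadjusted p under 0.05, 0 by DESeq2 and a median of -0.09. As in U2, summed U1 was highest in siControl 1, at 31169 CPM against 16618 and 17667 in the other siControl libraries and 21611, 15597 and 19164 in siLa. U5, U11 and U12 were also highest in siControl 1 (30721, 2582 and 9829 CPM) and lowest in siLa 2 (10488, 593 and 4087 CPM). U6 was highest in siControl 1 as well (424 CPM), but U4, U4atac, U7 and U6atac were highest in other libraries.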

How the data were processed

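The deposited table holds raw read counts per 400 bp window, per the file headers, and the submitters' processing notes name Trim Galore, Bowtie2, bedtools and edgeR with GRCh38/hg38, without versions or roles. Strand use and the treatment of reads with several positions are not given in the sources used here. A second deposited table, by the authors, holds their log2 fold changes, p-values and adjusted p-values of siLa against siControl, which were copied only where named. Its F scores, as deposited, are test statistics and were not used. Per the labels' protocols, the RNA was isolated using the mirVana PARIS kit, its ends were treated with phosphatase and then kinase, and an NEBNext small RNA kit gave the libraries.

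All windows were fitted with edgeR 4.0.16 in R 4.3.3 (TMM factors, filterByExpr defaults, quasi-likelihood test, arm as the only term), with Benjamini-Hochberg adjustment over 1064 windows and a threshold of 0.05. The procedure was tested on simulated data, in which windows were independent and the changes were larger than any fitted to a U2 window. That test does not show whether changes of the size fitted in U2 would be called. DESeq2 1.42.0 was an alternative. Sums and shares were described without a test. Gene names and sequences came from GENCODE release 29 and RefSeq by position: 73 of 74 windows matched a RefSeq small gene and 52 a GENCODE snRNA transcript. Sequences were aligned to RNU2-1 with Biopython 1.88. No column of per-sample values was left unmapped. Named windows were every U2 window on chromosomes 17 and 11, every other one that was tested, and the 5 untested ones outside those chromosomes with the highest mean count. RNU2-41P was named outside this rule, after its value was seen. The U2 windows, comparison classes and settings were chosen with earlier results of these data known. Alternatives are listed in the closing section.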

Additional observations from a re-analysis of the deposited data

How the results depend on the processing

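The count of U2 windows called stayed at 0 in each of 15 alternatives. The lowest adjusted p was 0.0513 under the replicate block and 0.0584 under upper quartile factors (edgeR). Without siLa replicate 1, 0 of all 1121 windows were called, so a U2 count of 0 was certain there. Elsewhere the calls over all windows ran from 31 of 1140 without siControl replicate 2 to 119 of 1139 without siLa replicate 3. With no filter they were 108 of 21830. The labels do not say whether replicate numbers pair the libraries. Correlations of same-numbered deviations were 0.14, 0.23 and -0.46, too few values to settle it. The replicate block raised the calls over all windows from 58 to 108, and those in U2 stayed at 0. With no filter, an unadjusted p under 0.05 was reached by 15 U2 windows that were lower in siLa and 1 that was higher, of 70 tested. Without siControl replicate 3 it was 6 and 7, of 35 tested. The share over all windows at that level is not given here for these settings. Array windows are not independent measurements, so such counts do not count separate changes. The median over all windows went from -0.05 to 0.26 under upper quartile factors. The summed CPM difference on chromosomes 17 and 11 was -15559 to -682 with a library left out, -11204 by library size, -8328 by RLE and -3082 by upper quartile factors. The difference in share was 2.89 to 7.85 points with a library left out. Counting the overlapping pair once, chosen after seeing the data, gave -9965 CPM and 6.20 points.

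Log2 fold changes that changed sign were as follows, and the cause was not tested. RNU2-3P was 0.062 under RLE factors, 0.062 under DESeq2 and 0.30 under upper quartile factors, where RNU2-59P was 0.083, RNU2-2 0.15 and LOC124900915 0.053. RNU2-57P was -0.11 without a filter and RNU2-23P -0.13 under the replicate block. Leaving out each library in turn gave -0.32 to 0.14 for RNU2-2, -0.015 to 0.60 for RNU2-56P, -0.15 to 0.82 for RNU2-57P, -0.39 to 0.15 for RNU2-3P, -1.47 to 0.038 for LOC124900915, -1.46 to 1.29 for RNU2-23P, -0.20 to 0.72 for RNU2-4P and -0.056 to 0.46 for RNU2-68P. Without siControl replicate 1 and siLa replicate 2 together, an alternative chosen after seeing the data, the array turned to RNU2-1 0.028, LOC124904135 0.024, LOC124904136 0.014, LOC124904137 0.034, LOC124904138 0.052, LOC124904139 0.062, LOC124904140 0.0071, LOC124904146 0.058, LOC124904141 0.028, LOC124904142 0.077, LOC124904143 0.093 and LOC124904144 0.067. There RNU2-2 was 0.050, RNU2-23P -0.82, RNU2-32P -0.052, RNU2-56P -0.21, RNU2-68P -0.16, RNU2-26P -0.078 and RNU2-57P -0.37.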
